A study of Mus musculus with 18 samples.

Results

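The genes described here are the 9 enzymes and cofactors that place methyl groups on cytosine in DNA, copy them at replication or start their removal: Tet1, Tet2, Tet3, Dnmt1, Uhrf1, Dnmt3a, Dnmt3b, Dnmt3l and Tdg. They were taken by symbol from a table of 25239 genes, and all 9 were among the 16582 genes with enough counts to be tested. RNA-seq fragments (read pairs) were counted in 18 libraries, 2 biological replicates of each of 9 conditions, from wild-type mouse E14Tg2a embryonic stem cells and from 1 clone of that line (TKO) in which the coding parts of Tet1, Tet2 and Tet3 had been removed. Both genotypes were first turned into epiblast-like cells (EpiLCs, the day 0 state) with Activin A and Fgf. EpiLCs were then grown as floating aggregates in GK15 medium, either without cytokines or with BMP4, BMP8a, SCF, LIF and EGF, which direct cells to primordial germ cell-like cells (PGCLCs). The wild-type conditions were EpiLCs, cytokine-free aggregates of days 2 and 6, and day 6 cells with cytokines. The TKO conditions were EpiLCs and aggregates of both days, each with and without cytokines. No day 2 wild-type sample with cytokines was analysed here. The day 6 wild-type cells with cytokines are labelled as aggregates, but the study's methods describe them as sorted for SSEA1 and CD61, and all other libraries as unsorted. Every comparison with them therefore also sets sorted against unsorted cells, and the 2 differences cannot be told apart.

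DNA methylation in mammals is carried mainly by cytosines in CG dinucleotides. DNMT3A and DNMT3B methylate unmodified sites, and DNMT3L is a partner without enzymatic activity that stimulates them, known from germ cells and early embryos. DNMT1, brought to newly replicated DNA by UHRF1, copies the marks onto the new strand. TET1, TET2 and TET3 oxidise methylcytosine, and TDG is the glycosylase that cuts out the most oxidised forms so that base excision repair can restore cytosine. Primordial germ cells are known for losing most of their DNA methylation, and the shift from naive to formative pluripotency for high levels of Dnmt3a and Dnmt3b.

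Libraries held 11286050 to 41257861 counts (median 16305168). Rn45s, the ribosomal RNA precursor, accounted for 16.2% to 47.6% of counts and the 9 genes together 0.0656% to 0.383%. Averaged across genes, the variance between replicates was 169.9 times that of counting noise in day 6 wild-type cells without cytokines. In the other conditions it was 11.2 to 61.1 times. This ratio also rises with library depth and was scaled by totals that include Rn45s. It therefore does not rank conditions by replicate spread alone. Results that rest on those day 6 cells are given with either replicate left out where that changes them. PGC markers (7 genes, summed normalised counts) reached 14638 to 15747 in day 6 wild-type PGCLCs, 8348 to 13197 in TKO aggregates and 122 to 125 in cytokine-free wild-type cells of day 6. Neural markers (7 genes) summed to 31271 to 35894 in the last of these and to 395 to 6363 in all other libraries. EpiLC markers (Fgf5, Pou3f1 and Otx2) summed to 7433 to 10228 in the EpiLC libraries and to 378 to 3302 in the others. Mesoderm and endoderm markers (9 genes) summed to at most 2715 in any library. RNA was taken from whole populations, so fewer cells of a type and less RNA per cell cannot be told apart.

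CG dinucleotides are the sites on which these enzymes act, and 3 upstream windows of the members themselves are shown because they differ widely in CG content. Each is the 250 bases before a RefSeq transcription start (build GRCm38.p6), 5′ to 3′ on the strand of the gene, with every CG dinucleotide in capitals, and none of the 3 overlaps an annotated exon. The Tet2 window (minus strand, chr3:133544391-133544640) has the most CGs of the members. The Dnmt3b window (plus strand, chr2:153649199-153649448) is CG-rich, and the Dnmt3l window (plus strand, chr10:78049592-78049841, the second of 3 annotated starts) is CG-poor.
Tet2: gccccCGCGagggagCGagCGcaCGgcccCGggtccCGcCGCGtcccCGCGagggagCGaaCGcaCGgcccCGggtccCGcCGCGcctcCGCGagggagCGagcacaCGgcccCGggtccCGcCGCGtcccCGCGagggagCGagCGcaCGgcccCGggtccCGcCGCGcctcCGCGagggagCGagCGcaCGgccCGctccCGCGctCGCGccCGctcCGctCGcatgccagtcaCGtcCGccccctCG
Dnmt3b: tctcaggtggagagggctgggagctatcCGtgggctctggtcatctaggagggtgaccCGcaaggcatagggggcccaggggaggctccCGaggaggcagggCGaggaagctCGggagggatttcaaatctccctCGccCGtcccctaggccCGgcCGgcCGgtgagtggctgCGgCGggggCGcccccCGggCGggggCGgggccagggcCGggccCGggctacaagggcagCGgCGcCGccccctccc
Dnmt3l: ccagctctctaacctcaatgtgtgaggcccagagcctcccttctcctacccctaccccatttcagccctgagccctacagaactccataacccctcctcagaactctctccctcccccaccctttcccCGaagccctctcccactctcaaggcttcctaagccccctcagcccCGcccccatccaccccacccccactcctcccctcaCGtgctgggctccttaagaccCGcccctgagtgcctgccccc
The Tet2 window held 51 CGs, and 0.067% of 32851 windows of the same length over 27025 genes held as many or more. The Dnmt3b window held 21 (as many or more in 16.3% of windows) and the Dnmt3l window 4 (62.2%), while the median over all windows was 6. The other 2 Dnmt3l starts had 5 and 3 CGs, so each of its starts lay below the median. Counts of CGs were 15 for Tet1, 17 for Tet3 and 19 for Tdg. The starts of Uhrf1 had 10 and 30, those of Dnmt1 2, 7 and 26, and those of Dnmt3a 38, 40 and 15. Windows other than the 3 shown can overlap annotated exons, the most for Tet3 (174 of 250 bases), Dnmt1 (166, start with 26 CGs) and Tet1 (100). Counts cover whole genes, so which start was used in a library was not analysed, and methylation itself was not measured in these files.

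The targeted genes were examined before any comparison. Levels are normalised counts (counts divided by DESeq2 size factors), given for replicate 1 and then replicate 2. Tet3 (chromosome 6, 83362373 to 83459084, minus strand, GRCm38) had 821 and 1019 in wild-type EpiLCs against 131 and 159 in TKO EpiLCs. At day 6 without cytokines Tet3 had 5849 and 3466 in wild-type cells against 252 and 237 in TKO cells. Mean levels of Tet3 in TKO cells were thus 15.8% of wild-type in EpiLCs, 8.91% at day 2 and 5.25% at day 6 without cytokines. At day 6 with cytokines, where wild-type cells had 171 and 330.1, it was 29.9%. Tet3 was called lower in TKO cells in all 4 pairs of conditions (log2 fold changes −2.64, −3.52, −4.23 and −1.73, adjusted p = 0.000220, 1.74e-06, 7.45e-08 and 0.00242 by edgeR), with no overlap between genotypes. For Tet1 (chromosome 10, 62804570 to 62908996, minus strand) the TKO level was 13.9% of wild-type in EpiLCs and 5.45% at day 6 with cytokines. In the cytokine-free cells Tet1 reached 82.9% (day 2) and 91.4% (day 6), where the libraries of the genotypes overlapped. Tet2 (chromosome 3, 133463679 to 133545139, minus strand) stood at 43.0%, 156%, 28.9% and 6.05% of wild-type in the same order of EpiLCs, day 2, day 6 without and day 6 with cytokines. The lower Tet2 of TKO cells at day 6 without cytokines (−1.78, SE 0.44, adjusted p = 0.00303) was not called without replicate 1 of the wild-type cells (−0.98, adjusted p = 0.0510), and the difference in EpiLCs (−1.17, adjusted p = 0.141) was called without replicate 2 of the TKO cells (−2.24, adjusted p = 0.0400). The deletion spans the region from start to stop codon, and 57.5% of the annotated exon length of Tet1, 37.4% of that of Tet2 and 54.1% of that of Tet3 lies outside it (untranslated regions and non-coding exons). Fragments from that remainder would be counted under the same symbol, so a whole-gene count of Tet1 or Tet2 in TKO cells does not check the label in the conditions where it came close to wild-type.

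In wild-type cells the make-up of the TET family differed from condition to condition. Per kb of exon, which allows levels to be compared between genes, Tet1 had normalised counts of 433 and 419.9 in EpiLCs, 141 and 122 at day 2 without cytokines, 90.7 and 41.4 at day 6 without cytokines, and 842 and 800.2 in day 6 PGCLCs. Tet2 had 20.2 and 13.6, 31.1 and 21.8, 155 and 62.4, and 338 and 523 per kb in the same order. Tet3 had 75.3 and 93.4, 235 and 180.2, 536 and 318, and 15.7 and 30.3 per kb. Tet1 was therefore highest with cytokines and lowest without them at day 6, and Tet3 was the reverse, as the plot of TET genes in wild-type cells shows. Of the summed level of the 3 genes per kb, Tet1 made up 80.8% in EpiLCs, 36.2% and 10.7% at days 2 and 6 without cytokines and 64.8% in PGCLCs. Tet3 made up 16.0%, 56.6%, 72.0% and 1.77%, and Tet2 3.20%, 7.19%, 17.3% and 33.5% (means of 2 libraries). These shares are taken within a library, which no scaling between libraries changes.

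**Figure D1:**
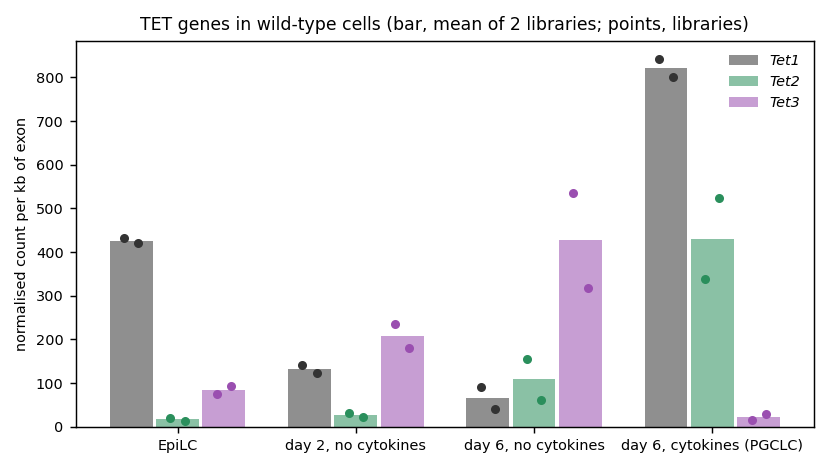
Levels of Tet1, Tet2 and Tet3 in the 4 wild-type conditions, in normalised counts per kb of exon; bars are means of 2 libraries and points the libraries. Tet1 and Tet2 are highest at day 6 with cytokines, where Tet3 has 15.7 and 30.3, and Tet3 is highest at day 6 without cytokines.

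Differences between conditions were tested with edgeR's quasi-likelihood test, 1 fit of 9 condition means, with Benjamini-Hochberg adjustment over the 16582 genes, and a gene was called at an adjusted p below 0.05. Without cytokines, wild-type Tet1 was lower at day 2 than in EpiLCs (log2 fold change −1.65, SE 0.32, adjusted p = 0.00108) and Tet3 higher (1.34, SE 0.29, adjusted p = 0.00264), while the difference of Tet2 did not pass (0.72, adjusted p = 0.236). From day 2 to day 6 Tet1 fell by 1.03 on the log2 scale (adjusted p = 0.0165), Tet2 rose by 2.00 (adjusted p = 0.00213) and Tet3 by 0.999 (adjusted p = 0.0123). Single replicates of day 6 carried part of this, replicate 2 for Tet1 and replicate 1 for Tet2 and Tet3. Without replicate 2 of day 6 the change of Tet1 was −0.59, and without replicate 1 that of Tet3 was 0.57. Both calls were lost. The calls were also lost without replicate 1 of day 2 for Tet1 (−0.95, adjusted p = 0.0759) and without replicate 2 of day 2 for Tet3 (0.85, adjusted p = 0.113). Without replicate 1 of day 6 the difference of Tet1 was −1.71 (adjusted p = 0.000444) and the rise of Tet2 was 1.20 (adjusted p = 0.0300). In a fit of only the libraries compared, the calls of Tet1 (−1.05, adjusted p = 0.134) and Tet3 (0.98, adjusted p = 0.111) were lost and that of Tet2 was not (1.98, adjusted p = 0.0481). Between EpiLCs and day 6 PGCLCs Tet2 rose by 4.74 (SE 0.50, adjusted p = 5.58e-06) and Tet3 fell by 1.84 (SE 0.30, adjusted p = 0.000254). Tet1 rose by 0.99 (SE 0.31, adjusted p = 0.0198), a call that was lost when any 1 of the 4 libraries was left out (0.95 to 1.03, adjusted p from 0.0611 to 0.0936). At day 6, cells with cytokines exceeded those without by 3.67 for Tet1 (SE 0.34, adjusted p = 3.43e-07) and 2.02 for Tet2 (SE 0.43, adjusted p = 0.000928), and had less Tet3 by 4.18 (SE 0.33, adjusted p = 5.45e-08). These 3 differences were called with either replicate of the cytokine-free cells left out, at 3.23 to 4.35 for Tet1, 1.52 to 2.82 for Tet2 and −4.49 to −3.75 for Tet3. The comparisons share libraries and are not independent of each other.

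In TKO cells the counts that remained under the Tet symbols also moved between conditions. Tet1 had 1937 and 1200.3 at day 2 without cytokines and 504 to 998 in the other TKO libraries. Residual Tet3 without cytokines was 165 and 238 on day 2 and 252 and 237 on day 6. With cytokines it was 62.3 and 54.6, then 63.8 and 86.1. The presence of cytokines went with a lower residual Tet3 count, at day 2 by a log2 difference of −1.76 (SE 0.34, adjusted p = 0.0111) and at day 6 of −1.68 (SE 0.34, adjusted p = 0.0107), with no overlap of libraries at either day. In wild-type cells at day 6 the corresponding difference of Tet3 was −4.18, and the genotypes differed by 2.50 (interaction, SE 0.45, adjusted p = 0.000435). Residual Tet1 was lower with cytokines at day 2 (−1.36, SE 0.32, adjusted p = 0.0287) and had −0.41 at day 6 (adjusted p = 0.473). Residual Tet2 had 31.7 and 102 in EpiLCs and 186 to 405 in all TKO aggregates, and it was higher at day 2 than in EpiLCs both with (2.39, adjusted p = 0.00387) and without cytokines (2.50, adjusted p = 0.00330). Both Tet2 differences depended in size on the EpiLC replicates, at 1.76 and 1.87 without replicate 1 and 3.46 and 3.56 without replicate 2, each still called. Residual Tet3 was lower at day 2 with cytokines than in TKO EpiLCs (−1.30, SE 0.35, adjusted p = 0.0197). Against TKO EpiLCs, the cytokine-free day 2 cells had 0.87 more Tet1 (adjusted p = 0.0664). The call of Tet1 between cytokine conditions at day 2 was lost with any of the 4 libraries left out (−1.66 to −0.96, adjusted p from 0.0588 to 0.268). That of Tet3 was lost at each day with 3 of the 4 (−1.85 to −1.48 with adjusted p from 0.0913 to 0.122 at day 2, and −1.73 to −1.50 with adjusted p from 0.0582 to 0.118 at day 6). The lower Tet3 at day 2 with cytokines than in TKO EpiLCs was likewise lost with 3 of the 4 left out (−1.40 to −1.15, adjusted p from 0.0910 to 0.114).

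Maintenance genes moved least. Dnmt1 (chromosome 9, 20907209 to 20959888, minus strand), the maintenance methyltransferase, had 6535 and 6671 in wild-type EpiLCs, 6192 and 5657 at day 2 and 3901 and 4236 at day 6 without cytokines, and 7965 and 7834 in day 6 PGCLCs. TKO EpiLCs had 5769.8 and 5733 for Dnmt1. Cytokine-free TKO aggregates had 5069.9 and 4995 on day 2 and 4509 and 4638 on day 6, and those with cytokines 5211 and 5080.4, then 4962 and 4592. The highest condition mean was 1.94 times the lowest, the narrowest range of the 9 genes. Ordered by level, none of the 8 pairs of neighbouring conditions differed by edgeR (adjusted p from 0.0917 to 0.867), so only conditions further apart could be told from each other. Day 6 wild-type PGCLCs had the most Dnmt1: they exceeded day 6 cytokine-free wild-type cells by 0.997 on the log2 scale (SE 0.14, adjusted p = 1.91e-05). They exceeded TKO cells with cytokines by 0.73 at day 6 (SE 0.14, adjusted p = 0.00212) and by 0.63 at day 2 (adjusted p = 0.00550). Their lead over TKO cells without cytokines at day 2 was 0.68 (adjusted p = 0.00285), a call that was lost with scaling by library size alone (−0.25 as TKO against wild-type, adjusted p = 0.300). In TKO cells themselves Dnmt1 showed no called difference between cytokine conditions, at day 2 with an interval of −0.24 to 0.34 and at day 6 of −0.21 to 0.37 (95%, log2). The response of the genotypes to cytokines at day 6 differed by −0.92 (interaction, SE 0.19, adjusted p = 0.00150).

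Uhrf1 (chromosome 17, 56303321 to 56323486, plus strand), which brings DNMT1 to hemimethylated CGs, did not follow Dnmt1. It had 10704 and 9475 in wild-type EpiLCs, 6863 and 6482 at day 2 and 2271 and 3622 at day 6 without cytokines, and 2997 and 3709 in day 6 PGCLCs. In TKO EpiLCs it had 6759 and 8041. In cytokine-free TKO aggregates it had 4668 and 5045 on day 2 and 3391 and 4320.0 on day 6, and with cytokines 6405 and 5063, then 5159 and 4057. Mean levels were thus highest in EpiLCs of each genotype, and the lowest wild-type levels were at day 6, where cells with and without cytokines overlapped (0.23, adjusted p = 0.404; without replicate 2 of the cytokine-free cells 0.61, adjusted p = 0.0252). Wild-type Uhrf1 fell by 1.54 from EpiLCs to PGCLCs (SE 0.23, adjusted p = 0.000107), where Dnmt1 had a difference of 0.30 (adjusted p = 0.0917). It fell by 1.22 from day 2 to day 6 without cytokines (SE 0.23, adjusted p = 0.000574), where Dnmt1 fell by 0.59 (SE 0.14, adjusted p = 0.00329). Both of these calls from day 2 to day 6 were lost in a fit of only the libraries compared (−1.24, adjusted p = 0.0542 for Uhrf1, and −0.61, adjusted p = 0.156 for Dnmt1). None of the 4 genotype differences of Uhrf1 passed by edgeR (−0.42 in EpiLCs, −0.49 at day 2 and 0.41 at day 6 without cytokines, 0.45 at day 6 with cytokines; adjusted p from 0.107 to 0.261, and 1 of the 4 had an unadjusted p under 0.05). Without replicate 2 of day 6 wild-type cells the cytokine-free difference at day 6 was 0.79 (adjusted p = 0.00665) and without replicate 1 it was 0.10. TKO cells at day 2 with cytokines had more Uhrf1 than day 6 wild-type PGCLCs (0.76, SE 0.23, adjusted p = 0.0272), a call that was lost without replicate 1 of the TKO cells (0.59, adjusted p = 0.203) or without replicate 1 (0.62, adjusted p = 0.206) or 2 (0.92, adjusted p = 0.0661) of the wild-type cells. Of the 75-base stretches of Uhrf1 exons, 10.9% also occur in the pseudogene Gm5648, and fragments there may have been left uncounted.

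S phase and proliferation genes moved in part of the same comparisons. The summed normalised count of the 18 genes of that list was 33734 and 49258 in cytokine-free wild-type cells of day 6 and 60371 to 107637 in all other libraries. From day 2 to day 6 without cytokines 14 of the 18 fell and 1 rose in wild-type cells (83.3% called, against 39.5% of all genes), and 15 of 18 were higher with than without cytokines at day 6 (83.3% against 58.2%). From wild-type EpiLCs to PGCLCs 6 fell and 2 rose (44.4%, close to the 40.6% of all genes). Between genotypes at day 6 with cytokines, where Dnmt1 differed, 1 of 18 was called (5.56% against 18.9%). Their part in the levels of Dnmt1 and Uhrf1 was not tested.

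Of the de novo methyltransferases, Dnmt3b (chromosome 2, 153649450 to 153687730, plus strand) had the widest range of levels after Dnmt3l. Dnmt3b had 42663 and 48315 in wild-type EpiLCs, 10242 and 18747 at day 2 without cytokines, 267 and 337 at day 6 without cytokines, and 437 and 494 in day 6 PGCLCs. TKO EpiLCs had 18018 and 16870.4. Cytokine-free TKO aggregates had 3916 and 5097 on day 2 and 1611 and 2269 on day 6, and those with cytokines 3801 and 2932, then 1136 and 914. TKO cells thus began below wild-type cells and ended above them, with no overlap of libraries in any of the 4 pairs. TKO cells had less Dnmt3b in EpiLCs (−1.35, SE 0.27, adjusted p = 0.00603) and at day 2 without cytokines (−1.72, SE 0.27, adjusted p = 0.000248). They had more at day 6 without (2.71, SE 0.29, adjusted p = 1.90e-06) and with cytokines (1.13, SE 0.28, adjusted p = 0.0105). The EpiLC call was lost without replicate 2 of TKO (−1.31, adjusted p = 0.0513) or of wild-type EpiLCs (−1.24, adjusted p = 0.0573). The call at day 6 with cytokines was lost without replicate 1 of TKO (0.96, adjusted p = 0.0866) or of wild-type cells (1.04, adjusted p = 0.105). The decline itself was seen in each series. In wild-type cells Dnmt3b fell by 1.60 from EpiLCs to day 2 and by 5.64 from day 2 to day 6 without cytokines, and by 6.57 from EpiLCs to PGCLCs (adjusted p = 0.000439, 1.62e-08 and 1.01e-08). In TKO cells it fell from EpiLCs to day 2 by 2.37 with and 1.97 without cytokines (adjusted p = 5.68e-05 and 0.000341), and from day 2 to day 6 by 1.71 with cytokines (SE 0.28, adjusted p = 0.00207). Without cytokines the day 2 to day 6 difference was −1.21 (SE 0.27, adjusted p = 0.0704). At day 2 TKO cells had more Dnmt3b than day 6 wild-type PGCLCs, by 2.84 with (SE 0.29, adjusted p = 2.75e-05) and 3.25 without cytokines (SE 0.29, adjusted p = 8.20e-06). The difference between day 6 wild-type cells with and without cytokines was small (0.67, SE 0.28, adjusted p = 0.0489). It did not pass without replicate 1 of the cytokine-free cells (0.50, adjusted p = 0.201) or without replicate 1 (0.76, adjusted p = 0.0808) or 2 (0.59, adjusted p = 0.176) of the PGCLCs. Of the 75-base stretches of Dnmt3b, 7.22% also occur in Dnmt3c, a related gene with no value here.

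Dnmt3a (chromosome 12, 3806007 to 3914443, plus strand) fell between EpiLCs and day 2 and had its lowest levels in the cells with cytokines. Wild-type cells had 18147 and 14657 in EpiLCs, 3258 and 4141 at day 2 and 3752 and 3372 at day 6 without cytokines, and 1302 and 1178 in day 6 PGCLCs. TKO EpiLCs held 6223 and 13263. Cytokine-free TKO aggregates held 1839 and 2396 on day 2 and 2538 and 2934 on day 6, and those with cytokines 1413 and 1098, then 1389 and 1159.5. The 6 libraries with cytokines therefore lay between 1098 and 1413 in both genotypes, below all 8 cytokine-free aggregates, which lay between 1839 and 4141. Dnmt3a fell by 3.68 from wild-type EpiLCs to PGCLCs (SE 0.31, adjusted p = 6.96e-07) and by 2.09 to day 2 without cytokines (SE 0.29, adjusted p = 7.40e-05). In TKO cells it fell from EpiLCs to day 2 by 2.95 with (SE 0.30, adjusted p = 1.37e-05) and 2.22 without cytokines (SE 0.29, adjusted p = 0.000187), or −2.30 and −1.57 without replicate 2 of the TKO EpiLCs. With against without cytokines at day 6, the difference was −1.48 in wild-type (SE 0.28, adjusted p = 0.000364) and −1.09 in TKO cells (SE 0.28, adjusted p = 0.0369). The difference between these responses did not pass (0.40, 95% interval −0.44 to 1.24, adjusted p = 0.442). At day 2 the TKO difference was −0.74 (adjusted p = 0.131). Between genotypes Dnmt3a was called only at day 2 without cytokines (−0.84, SE 0.28, adjusted p = 0.0312), and its difference at day 6 with cytokines was 0.03 with an interval of −0.56 to 0.63. The day 2 call was lost without either TKO replicate or without wild-type replicate 2 (−1.04 to −0.66, adjusted p from 0.0569 to 0.213), and with scaling by library size alone (−0.60, adjusted p = 0.0780). The TKO difference between cytokine conditions at day 6 was lost when any 1 of the 4 libraries was left out (−1.23 to −0.96, adjusted p from 0.128 to 0.191). In EpiLCs the genotype difference was −0.72 (adjusted p = 0.113), and it was −1.37 (adjusted p = 0.00828) without replicate 2 of the TKO cells, whose replicates stood at 6223 and 13263.

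The ratio of Dnmt3a to Dnmt3b per kb of exon turned over in wild-type cells. In log2, it was −2.43 and −2.91 in wild-type EpiLCs, −2.85 and −3.37 at day 2 and 2.62 and 2.13 at day 6 without cytokines, and 0.38 and 0.06 in day 6 PGCLCs. In TKO cells it was −2.73 and −1.54 in EpiLCs, −2.28 and −2.28 at day 2 and −0.54 and −0.82 at day 6 without cytokines, and −2.62 and −2.61 at day 2 and −0.90 and −0.85 at day 6 with cytokines. Dnmt3b was the more abundant per kb in all 10 TKO libraries and in wild-type cells up to day 2, by 6.37 times in wild-type EpiLCs and 1.60 times in TKO cells at day 6 without cytokines. Dnmt3a was 5.18 times as abundant in wild-type cells at day 6 without cytokines. The sign at day 6 in TKO cells rests on the division by exon length: the ratio of the counts alone was 0.51 without and 0.32 with cytokines (log2). No test was run on this ratio, which is taken within a library.

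**Figure D2:**
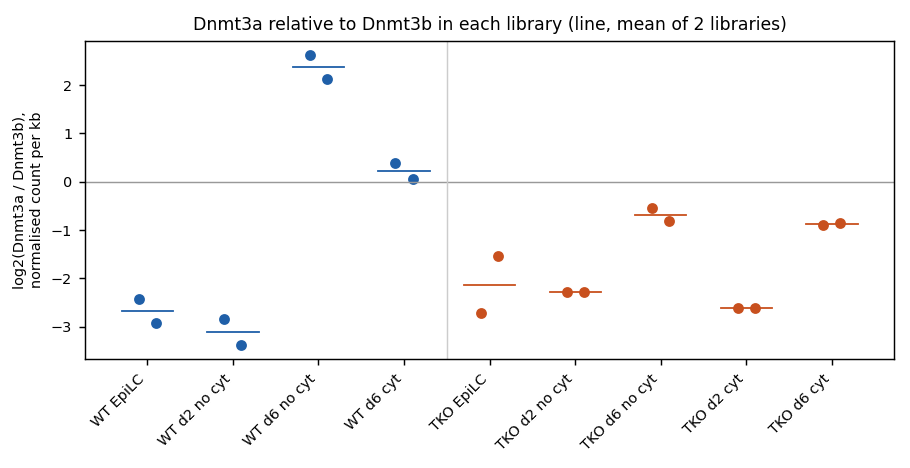
Log2 ratio of Dnmt3a to Dnmt3b in each library, from normalised counts per kb of exon (points, libraries; line, mean of 2; blue, wild-type; orange, TKO; the grey line marks equal levels). The 4 day 6 wild-type libraries lie above 0, at 0.06 to 2.62, and all TKO libraries below it, at −2.73 to −0.54.

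Dnmt3l (chromosome 10, 78041947 to 78063622, plus strand), the cofactor of de novo methylation in germ cells, was far lower in cytokine-free wild-type aggregates than in the other conditions. It had 2938 and 1534 in wild-type EpiLCs, 47.8 and 30.3 at day 2 and 1.81 and 0 at day 6 without cytokines, and 1429.5 and 1824 in day 6 PGCLCs. For TKO EpiLCs the values were 3145 and 2754. For cytokine-free TKO aggregates they were 734 and 656 on day 2 and 878 and 879.7 on day 6, and with cytokines 807 and 432, then 973 and 425. TKO aggregates thus kept 425 to 973 with or without cytokines, while cytokine-free wild-type cells held 4 counts over 2 libraries at day 6. Relative to those 4 counts the level was 1254 times as high in day 6 wild-type PGCLCs (exact 95% interval 489 to 4604, counting error only) and 674 times in day 6 TKO cells without cytokines (263 to 2477). Against wild-type cells at day 2 without cytokines, TKO cells were higher by 4.14 on the log2 scale (SE 0.45, adjusted p = 9.02e-06). The change from EpiLCs to day 2 differed between genotypes by 3.70 (interaction, SE 0.57, adjusted p = 0.000713). EpiLCs of both genotypes overlapped (0.44, adjusted p = 0.486). The day 6 comparisons against cytokine-free wild-type cells all passed by edgeR, with TKO higher (adjusted p = 3.54e-08) and wild-type PGCLCs higher (adjusted p = 9.94e-09). Their fitted log2 changes depend on the prior count and are not given as sizes. In wild-type cells the fall to day 2 without cytokines was 5.79 (SE 0.47, adjusted p = 7.57e-07), in TKO cells 2.10 without (SE 0.38, adjusted p = 0.00223) and 2.25 with cytokines (SE 0.38, adjusted p = 0.00120). TKO cells with cytokines had less Dnmt3l than wild-type PGCLCs at day 6 (−1.23, SE 0.37, adjusted p = 0.0327), as did day 2 TKO cells with (−1.40, adjusted p = 0.0170) and without cytokines (−1.25, adjusted p = 0.0246). The day 6 call was lost without TKO replicate 2 (−0.75, adjusted p = 0.235) or without either wild-type replicate (−1.40 and −1.05, adjusted p = 0.0780 and 0.161). For day 2 with cytokines the call was lost without TKO replicate 2 (−1.03, adjusted p = 0.148) or wild-type replicate 2 (−1.22, adjusted p = 0.111), and for day 2 without cytokines without any of the 4 libraries (−1.42 to −1.07, adjusted p from 0.0590 to 0.152) and with scaling by library size alone (−0.82, adjusted p = 0.104). Without TKO replicate 1 the day 6 difference was −1.95 (adjusted p = 0.0109).

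Per kb, Dnmt3l was the main member of the DNMT3 family in wild-type PGCLCs, with 72.1% of the summed level of Dnmt3a, Dnmt3b and Dnmt3l. Its share was 6.47% in wild-type EpiLCs, 0.449% and 0.0769% at days 2 and 6 without cytokines. In TKO cells it was 18.1% in EpiLCs, 17.4% to 19.9% at day 2 and 31.5% without and 40.1% with cytokines at day 6. Dnmt3b held 80.8% in wild-type and 66.0% in TKO EpiLCs, and 12.8% in wild-type PGCLCs against 38.8% in TKO cells at day 6 with cytokines. The DNMT3 family of wild-type PGCLCs was thus mostly cofactor by level per kb, and that of TKO cells kept more Dnmt3b. The cofactor's majority rests on the division by exon length. In normalised counts alone, these PGCLCs had 1429.5 and 1824 for Dnmt3l, 1302 and 1178 for Dnmt3a, and 437 and 494 for Dnmt3b. Dnmt3l was highest in both libraries, but in replicate 1 it lay below Dnmt3a and Dnmt3b summed.

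**Figure D3:**
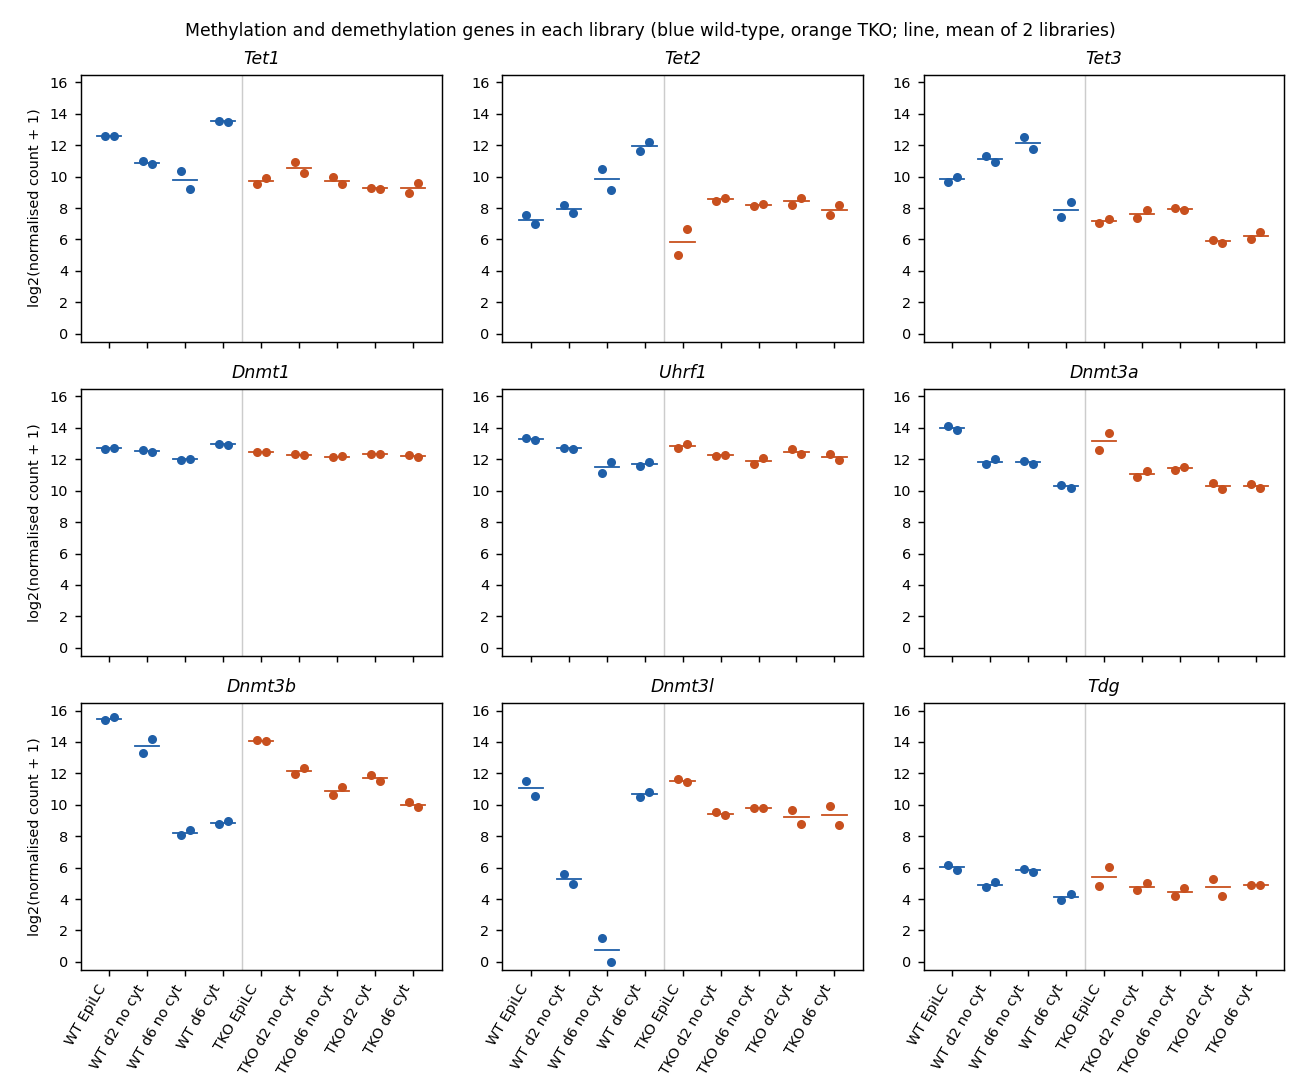
Normalised counts of the 9 genes in each of the 18 libraries, as log2(normalised count + 1), with blue for wild-type and orange for TKO and a line at the mean of the log2 values. Dnmt1 and Uhrf1 have the narrowest ranges among the abundant genes, Dnmt3b declines in every series, and Dnmt3l is at 1.81 and 0 normalised counts in day 6 wild-type cells without cytokines.

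Tdg (chromosome 10, 82629828 to 82650799, plus strand) had few counts, 14 to 133 per library, and 54.1% of its 75-base stretches also occur in other genes, chiefly its pseudogenes, so its values are uncertain. An exon of the gene Glt8d2 on the opposite strand covers 367 of its exon bases, and the counting, as far as recorded, did not use the strand. Normalised counts were 70.7 and 57.8 in wild-type EpiLCs, 26.3 and 32.6 at day 2 and 60.3 and 51.0 at day 6 without cytokines, and 14.6 and 19.3 in PGCLCs. TKO cells had 17.2 to 63.8, with no condition set apart from the others. Tdg was called lower in wild-type PGCLCs than in EpiLCs (−1.86, SE 0.47, adjusted p = 0.00570) and than in day 6 cells without cytokines (−1.67, SE 0.47, adjusted p = 0.00632). It was also called lower in TKO than in wild-type cells at day 6 without cytokines (−1.38, SE 0.48, adjusted p = 0.0227). The calls against PGCLCs were lost without replicate 1 of these (−1.68 and −1.48, adjusted p = 0.0582 and 0.0623). The genotype call was lost without replicate 1 of the wild-type cells (−1.25, adjusted p = 0.0705) or without either TKO replicate (−1.13 and −1.66, adjusted p = 0.160 and 0.0515), and in a fit of only the libraries compared (−1.31, adjusted p = 0.0693).

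Over all 9 genes, the genotype comparisons called 3 of the 9 genes in EpiLCs (Tet1, Tet3 and Dnmt3b, all lower in TKO cells), where 10.8% of all genes tested were called. Without cytokines 4 of 9 were called at day 2 (32.8% of all genes) and 5 of 9 at day 6 (55.4%), and with cytokines at day 6 it was 6 of 9 (18.9%). Of the 6 genes that were not targeted, 1, 3, 3 and 3 were called in these comparisons, so Dnmt3b was the only untargeted gene called in all 4. At day 6 without cytokines the share called among the members was close to that of all genes. Median log2 fold changes of the 9 genes were −0.72, −0.30, −0.12 and −0.73, against 0.04, 0.00, 0.01 and 0.05 over all genes tested. The 3 deleted genes weigh on these medians: over the 6 genes that were not targeted they were −0.43, −0.38, 0.30 and 0.24, positive at day 6. In wild-type cells, 5 of 9 changed from EpiLCs to day 2 without cytokines (34.4% of all genes) and 7 of 9 from day 2 to day 6 (39.5%). A fit of only the libraries compared called 3 of 9 for the latter (Tet2, Dnmt3b and Dnmt3l). Its number of all genes called is not given. From wild-type EpiLCs to PGCLCs 7 of 9 changed (40.6%), and 8 of 9 differed between wild-type day 6 cells with and without cytokines (58.2%). In TKO cells, 5 of 9 changed from EpiLCs to day 2 with cytokines (14.3%) and 4 of 9 without (18.7%), and from day 2 to day 6 only Dnmt3b with cytokines (6% of all genes). From EpiLCs to day 2 the untargeted genes among these were Dnmt3a, Dnmt3b and Dnmt3l in each case, and the rest were residual Tet counts. From day 2 to day 6 without cytokines, edgeR called 0 of 9 (0.476% of all genes), with 2 of 9 at an unadjusted p under 0.05. DESeq2 called 1 of 9 (Dnmt3b), and its number of all genes called is not given. Between TKO cells with and without cytokines 2 of 9 differed at day 2 (4.52%) and 2 of 9 at day 6 (5.61%). Of the 6 untargeted genes these were 0 at day 2 and 1 at day 6 (Dnmt3a), and the rest were residual counts of Tet1 or Tet3. TKO cells at day 2 differed from day 6 wild-type PGCLCs in 7 of 9 with (19.9%) and 5 of 9 without cytokines (24%). Of the 6 untargeted genes these were 4 with and 3 without cytokines. The genotype difference changed from EpiLCs to day 2 for 2 of 9 (12.3%), and the response to cytokines at day 6 differed between genotypes for 7 of 9 (42.9%). Of the 6 untargeted genes these were 1 and 4. The deleted genes weigh on each of these counts of 9. Many of these comparisons share libraries, so their counts are not independent.

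**Figure D4:**
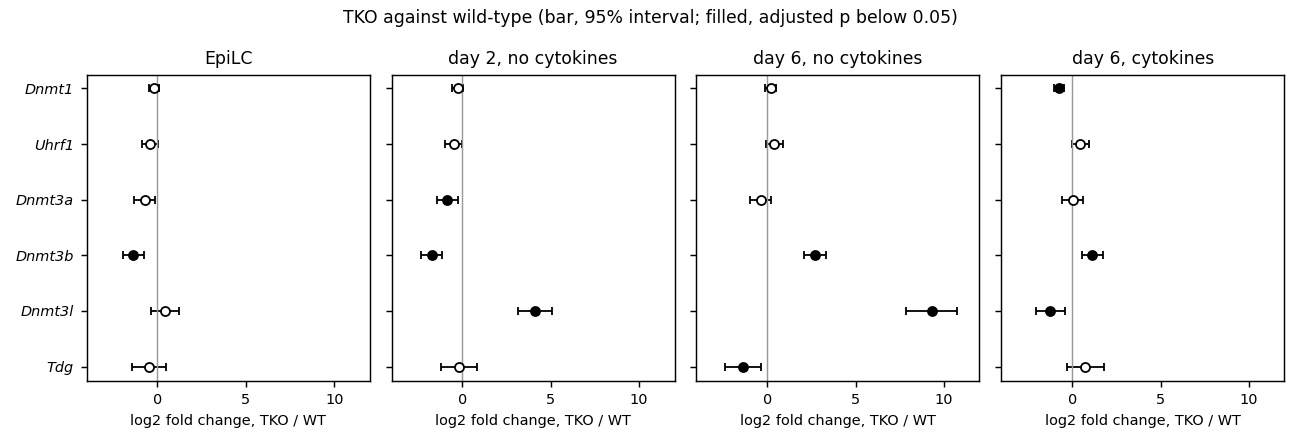
Log2 fold change of TKO against wild-type cells for the 6 genes that were not targeted, in EpiLCs, at days 2 and 6 without cytokines and at day 6 with cytokines (bars, 95% interval; filled points, adjusted p below 0.05 by edgeR). Dnmt3b lies below 0 in EpiLCs and at day 2, at −1.35 and −1.72, and above it at day 6. The Dnmt3l point at day 6 without cytokines is a fitted value against 4 counts in wild-type cells and shows direction only.

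Other genes of the pathway were taken from 9 lists of 82 tested genes in all. The 82 include 4 regulators in germ cells and 12 methylation-controlled germline genes, described below. Genes of both lists made up a large part of those called between genotypes in EpiLCs and at day 6 with cytokines. The shares called of the 82 therefore do not describe the enzymes and cofactors alone. Between genotypes 18 were called in EpiLCs (22.0%), 43 at day 2 and 60 at day 6 without cytokines (52.4% and 73.2%), and 24 at day 6 with cytokines (29.3%). Between wild-type day 6 cells with and without cytokines it was 58 (70.7%). Median log2 fold changes were −0.01, 0.29, 0.50, −0.04 and 0.55 in the same order, against 0.04, 0.00, 0.01, 0.05 and 0.01 over all genes. The shares of all genes tested, against which each list's counts are to be read, were 10.8%, 32.8%, 55.4%, 18.9% and 58.2%. For the reduced fits that follow, the number of all genes called is not given. Their counts do not set a change in the 82 apart from a loss of calls over all genes. With single libraries left out there were 6 to 16 called of the 82 in EpiLCs and 6 to 13 at day 6 with cytokines, the lowest counts without replicate 1 of the wild-type cells in each case, and 30 to 37 and 52 to 62 at days 2 and 6 without cytokines.

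Among 9 maintenance cofactors, such as Hells, Pcna and Cdca7l, 0 were higher and 2 lower in TKO EpiLCs, 3 higher and 4 lower at day 2, 4 higher and 0 lower at day 6 without cytokines, and 7 higher and 0 lower in wild-type day 6 cells with against without cytokines. The shares called were 22.2%, 77.8% and 44.4% between genotypes, the last below that of all genes, and 77.8% between wild-type cells. With cytokines at day 6 edgeR called 0 of the 9 between genotypes, and 1 had an unadjusted p under 0.05. Cdca7l, a partner of the HELLS remodeller, was lower in TKO EpiLCs, at 710.3 and 742 against 1472 and 1335 (−0.92, SE 0.23, adjusted p = 0.0216), a call that was lost when any 1 of the 4 libraries was left out (−0.97 to −0.87, adjusted p from 0.0870 to 0.127) and with scaling by library size alone (−0.61, adjusted p = 0.0930). Among 18 genes of base excision repair and the deaminases, 2, 4, 13 and 3 were called between genotypes in the order of the 4 comparisons (2 higher, then 3 higher and 1 lower, 9 higher and 4 lower, and 3 lower), and 14 between wild-type day 6 cells (12 higher with cytokines). These are 11.1%, 22.2%, 72.2%, 16.7% and 77.8% of the list, so in EpiLCs the share was close to that of all genes, and at day 2 and at day 6 with cytokines it was below it. Apobec2, a muscle-enriched gene of the APOBEC family, stood at 125 and 134 in TKO EpiLCs against 22.5 and 12.8 in wild-type EpiLCs (3.01, SE 0.49, adjusted p = 0.00165). Gadd45g, a stress and differentiation gene, was lower in wild-type PGCLCs, at 43.8 and 65.0 against 1245 and 792 without cytokines (−4.18, SE 0.39, adjusted p = 3.59e-07).

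Among 7 methyl-CpG readers, 3 were higher in TKO EpiLCs and 3 at day 2 without cytokines, while at day 6 without cytokines 1 was higher and 4 lower, and with cytokines 1 was lower (42.9%, 42.9%, 71.4% and 14.3% of the list). Among 9 TET partners and CXXC genes, 1, 4, 5 and 3 were called between genotypes, in both directions in all but the EpiLCs, where the 1 was lower. These are 11.1%, 44.4%, 55.6% and 33.3%, close to the shares of all genes in EpiLCs and at day 6 without cytokines. Cxxc4, which encodes a CXXC protein that binds TET2, had 71.1 and 63.1 in day 6 TKO cells without cytokines against 901 and 344 in wild-type cells (−3.19, SE 0.55, adjusted p = 0.000177), and 2.78 and 7.72 in wild-type PGCLCs (−6.81 against the cytokine-free cells, SE 0.69, adjusted p = 7.23e-07). Both were called with either of those wild-type replicates left out, at −2.34 (adjusted p = 0.00151) and −5.95 without replicate 1 and −3.72 and −7.32 without replicate 2; without replicate 2 of the PGCLCs the second was −7.70. At day 2 without cytokines Cxxc4 was also lower in TKO cells (34.2 and 46.9 against 167 and 92.5; −1.70, SE 0.55, adjusted p = 0.0267), a call that was lost without either TKO replicate or wild-type replicate 1 (−1.94 to −1.25, adjusted p from 0.0817 to 0.172) or with scaling by library size alone (−1.51, adjusted p = 0.0520). Among 13 genes of methyl donor and ketoglutarate metabolism, 3, 5, 10 and 3 were called (23.1%, 38.5%, 76.9% and 23.1%). D2hgdh, the mitochondrial enzyme that turns D-2-hydroxyglutarate into the TET cosubstrate alpha-ketoglutarate, was at 164 to 252 in the 8 wild-type libraries and at 1.13 to 40.3 in the 10 TKO libraries, so that the genotypes did not overlap in any condition. Its log2 differences were −5.25 in EpiLCs (SE 0.41, adjusted p = 8.74e-06), −4.56 at day 2 and −3.93 at day 6 without cytokines (adjusted p = 7.31e-07 and 5.34e-07), and −2.74 at day 6 with cytokines (adjusted p = 9.17e-05). TKO cells are 1 clone, so a difference of the clone and one of the genotype cannot be told apart. The RNA methyltransferase gene Trdmt1 was not called by edgeR between genotypes in any of the 4 comparisons, with an unadjusted p under 0.05 in 1 of them (day 6 without cytokines), where DESeq2 called it. Among 9 genes of H3K9 and H3K36 methylation, whose marks recruit the methylation machinery, 0, 5, 7 and 2 were called between genotypes, and the larger part of those called was lower in TKO cells (0, 3, 5 and 2). The shares called were 55.6%, 77.8% and 22.2% after EpiLCs; of the 0 in EpiLCs, 1 had an unadjusted p under 0.05.

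Genes that restrain methylation in germ cells or are known to be silenced by it had some of the widest differences. Of 4 regulators (Prdm14, Prdm1, Tfap2c and Dppa3, all 4 also among the PGC markers), 4 were higher in TKO cells at day 2 and at day 6 without cytokines, with median log2 fold changes of 4.82 and 7.61, and 3 were lower at day 6 with cytokines, with a median of −1.32. In EpiLCs 2 of them were higher in TKO cells (median 0.88). Prdm14, a repressor of Dnmt3b in naive and germ cells, had 788 and 740.1 in TKO against 2.92 and 6.99 in wild-type cells at day 2 without cytokines (7.15, SE 0.51, adjusted p = 2.19e-07; 7.94 without wild-type replicate 2), and 18.8 and 70.4 against 3.21 and 0.556 in EpiLCs (5.02, SE 0.74, adjusted p = 0.000953; 3.78 to 6.06 with 1 library left out, lowest without replicate 2 and highest without replicate 1 of the wild-type EpiLCs, and 3.79 and 5.70 without replicates 2 and 1 of the TKO EpiLCs). Dnmt3b was lower in TKO cells in both of these comparisons, as given above; at day 6 without cytokines, where all 4 regulators were also higher in TKO cells, Dnmt3b was higher too. Dppa3, which keeps UHRF1 from chromatin, had 1 count over the day 6 wild-type libraries without cytokines and 643 in those of TKO cells, a ratio of 1147 in normalised counts (exact interval 205 to 45364, counting error only), and 2650 in wild-type PGCLCs, a ratio of 2718 (487 to 107408). Prdm1, the repressor that starts the germ cell programme, was lower in TKO cells at day 6 with cytokines, at 111 and 208 against 1899.6 and 1755 (−3.51, SE 0.36, adjusted p = 1.85e-05). PGC markers summed to 13197 and 12921 in those TKO cells and to 15747 and 14638 in the wild-type cells. Their part in the differences of the methylation genes was not tested.

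Of 12 germline genes known to be silenced by promoter methylation, 5 were higher in TKO cells in EpiLCs, 11 at day 2 and 12 at day 6 without cytokines, and 9 at day 6 with cytokines, and 0 were called lower (41.7%, 91.7%, 100% and 75% of the list). With 1 library left out these counts ranged from 1 to 4 in EpiLCs, 11 to 11 at day 2, 11 to 12 at day 6 without and 2 to 8 with cytokines, and both lowest counts (1 and 2) came without wild-type replicate 1. The number of all genes called in these reduced fits is not given beside the counts. With all libraries, the median log2 fold changes of the 12 genes were 0.78, 3.33, 6.21 and 1.40. In the cytokine-free comparisons 1 of the 12 at day 2 and 5 at day 6 were at or under 3 counts in wild-type cells, and with these at their bounds the medians were 3.30 and 5.05. Mael, a piRNA pathway gene, had 0 counts in cytokine-free wild-type cells of day 6 and 519 and 641 normalised counts in TKO cells, at least 589-fold higher (floor of 3 counts over the group). In wild-type PGCLCs Mael had 73.0 and 86.2, at least 81.7-fold above the cytokine-free cells, and TKO cells with cytokines had 433 and 549 (2.62 above wild-type PGCLCs, SE 0.29, adjusted p = 5.68e-05). Brdt, a testis bromodomain gene, had 104 and 168 in TKO cells with cytokines against 23.6 and 25.1 in wild-type PGCLCs (2.47, SE 0.40, adjusted p = 0.000702). In wild-type PGCLCs 10 of the 12 were higher than in cytokine-free cells, with a median of 5.94, or 4.87 with genes at their bounds. These are transcript levels, and no methylation at these promoters was measured here.

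Genes with the most similar patterns were found by Pearson's r of log2 CPM (counts scaled to a common library total), over the 8 wild-type libraries for the TET genes and over all 18 for the others, among genes with a mean normalised count of 100 or more. These values describe libraries that share conditions, so they carry no test. Closest to Tet1 was Piwil2, a piRNA-binding Argonaute protein of germ cells (r = 0.999), followed by Usp28 and Itpr3 (0.997 and 0.996), and closest to Tet2 was Brwd1 (0.987). For Tet3, Dtx3, Galnt16 and Mapre2 all reached 0.996. Uhrf1 was closest to Chaf1b, a subunit of the histone chaperone that loads nucleosomes at replication (0.966), and Dnmt1 to Gclc (0.914), while Dnmt1 and Uhrf1 had an r of 0.380 with each other. Dnmt3b was closest to Ptgis (0.963) and had 0.931 with Uhrf1 and 0.708 with Dnmt3a, which was itself closest to Fads2 (0.925). Dnmt3l was closest to Tcea3 (0.977) and to the meiotic recombinase Dmc1 (0.972), and Tdg to Nxn (0.870). Neighbouring conditions in the order of levels differed by edgeR in 4 of 8 pairs for Dnmt3b, 3 for Tet3, 2 each for Tet1, Tet2 and Dnmt3l, 1 for Dnmt3a and 0 for Dnmt1, Uhrf1 and Tdg.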

How the data were processed

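The deposited table held gene counts. The authors trimmed read pairs with Trim Galore 0.5.0 and cutadapt 1.16 and aligned them to mm10 with STAR 2.7.1a. They counted fragments over refGene exons with featureCounts (Subread 1.5.2), without the strand although the libraries were directional. The same counting options were assumed for every library, as the record of them may not cover all TKO libraries. The table's 33 rows that held no values were left out. From the counts, edgeR 4.0.16 (R 4.3.3, limma 3.58.1) was run as 1 quasi-likelihood fit of 9 condition means over 18 libraries, after filterByExpr and TMM scaling, with Benjamini-Hochberg adjustment over 16582 genes and a limit of 0.05. Standard errors were taken as the log2 fold change over the square root of F. The method was tested on simulated data. Levels are counts divided by DESeq2 1.42.0 size factors. Levels per kb used the union of GENCODE M21 exons with a RefSeq counterpart (GRCm38). The total count per library sets the precision, and intervals from counts cover counting error only. Replicates are biological replicates of 1 line and 1 clone, so p-values measure the spread between these cultures.

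The 9 genes, the pathway lists and the marker lists were chosen with earlier results of these data known. All 9 genes were named in every comparison. Of the pathway lists, the 2 highest and the 2 lowest log2 fold changes past the limit were named in each genotype comparison and in wild-type day 6 cells with against without cytokines. A gene that this rule names is not reported here. For similar patterns, the 3 genes of highest Pearson r were taken (log2 CPM, prior count 2). Alternatives were DESeq2's Wald test, 3 other scalings (RLE size factors, library size alone, TMM without Rn45s), 2 other filters on low counts (none, and a mean CPM of 1), only the libraries compared, the replicate number as a block, each library left out, an adjusted p below 0.01, and the study's limits (adjusted p below 0.05 and an absolute log2 fold change above 2). Promoter windows were RefSeq sequences of GRCm38.p6, and 9 of 9 genes matched.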

Additional observations from a re-analysis of the deposited data

Results flagged for a closer look

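Each result here is a log2 difference between the genotypes' responses to the same change (TKO response minus wild-type response), tested as an interaction with edgeR. For the change from EpiLCs to day 2 without cytokines, the responses differed by 2.52 for Tet1 (SE 0.45, adjusted p = 0.00195) and by 3.70 for Dnmt3l (SE 0.57, adjusted p = 0.000713). Both genes fell in wild-type cells (−1.65 and −5.79), while in TKO cells the residual Tet1 count had 0.87 (adjusted p = 0.0664) and Dnmt3l fell by 2.10.

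For the presence of cytokines at day 6, the responses differed for 7 genes. Among the targeted genes the differences were −4.08 for Tet1 (SE 0.46, adjusted p = 5.86e-06), −2.26 for Tet2 (SE 0.62, adjusted p = 0.00813) and 2.50 for Tet3 (SE 0.45, adjusted p = 0.000435), where the TKO side is the count of what remains of each gene. Without replicate 1 of day 6 wild-type cells without cytokines they were −4.76 for Tet1 and −3.06 for Tet2. Dnmt1 differed by −0.92 (SE 0.19, adjusted p = 0.00150), between −0.99 and −0.86 with either replicate of day 6 wild-type cells without cytokines left out. Dnmt3b differed by −1.57 (SE 0.39, adjusted p = 0.00436): with against without cytokines it was 0.67 in wild-type cells and −0.90 in TKO cells (adjusted p = 0.0640). Dnmt3l differed by −10.54 (SE 0.79, adjusted p = 1.32e-07), a fitted value that rests on 4 counts in wild-type cells without cytokines and is not a size. Tdg differed by 2.12 (SE 0.68, adjusted p = 0.0208), a call that was lost without replicate 1 of TKO cells without cytokines (1.87, adjusted p = 0.0873) or of wild-type PGCLCs (1.93, adjusted p = 0.0767). The wild-type cells with cytokines were sorted and the other 3 conditions were not, so sorting and the response to cytokines cannot be told apart in these 7 results.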

How the results depend on the processing

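Over the 9 genes in 18 comparisons, 1905 of the recomputed differences kept their direction and their side of the limit, 67 lost the call, 43 gained one and 1 reversed; a difference past the limit in neither fit was given no direction. The reversal was Dnmt1 from wild-type EpiLCs to day 2, at 0.47 (adjusted p = 0.0385) with scaling by library size alone against −0.11 as reported. That scaling moved the median log2 fold change of all genes to 0.59 in the same comparison (0.02 as reported), the furthest from 0 of the 18, and raised the genes called between TKO EpiLCs and wild-type EpiLCs from 1783 (1255 higher) to 2693 (2508 higher), those from TKO EpiLCs to day 2 without cytokines from 3095 (1682 higher) to 5024 (4751 higher), and those between TKO cells with and without cytokines from 749 (340 higher) to 2772 (100 higher) at day 2 and from 931 (425 higher) to 3247 (109 higher) at day 6. It called 4 of the 9 genes between TKO cells with and without cytokines at day 2.

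Under the study's limits, counts of the 9 genes are given with those of all 16582 genes in brackets. Genotypes differed in 2 in EpiLCs (383) and 2 among day 6 cells with cytokines (924). Without cytokines they differed in 2 on day 2 (2074) and 3 on day 6 (3949). Wild-type cells gave 2 from EpiLCs to day 2 (1901) and 3 from day 2 to day 6 (2410). They gave 3 from EpiLCs to PGCLCs (1914) and 4 between the day 6 conditions (4434). TKO cells gave 4 with (750) and 3 without cytokines (880) from EpiLCs to day 2. Against PGCLCs, day 2 TKO cells gave 4 with (820) and 3 without them (1209). The differences of responses gave 2 for time (1061) and 5 for cytokines (3708). From day 2 to day 6 TKO cells gave 0 with (434) and without cytokines (56). Between cytokine conditions TKO cells gave 0 on day 2 (262) and on day 6 (308). With an adjusted p below 0.01 the last 2 were also 0. From day 2 to day 6 without cytokines TKO cells had 1 called under DESeq2, library size alone and no filter. With only the libraries compared it was 2, and 3 for wild-type cells (Tet1, Tet3, Dnmt1 and Uhrf1 lost). For these fits the number of all genes called is not given. Such counts do not set a change in the 9 genes apart from one over all genes. Dnmt3b between wild-type day 6 cells was not called with RLE size factors (0.63, adjusted p = 0.0594), library size alone (0.37, adjusted p = 0.223), a mean CPM of 1 (0.65, adjusted p = 0.0532) or only the libraries compared (0.65, adjusted p = 0.0771). The cause was not tested.

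Leaving out each library in turn, where a lone library is assumed to vary like the other groups, gave 2 to 4 of the 9 genes between genotypes in EpiLCs, 3 to 4 at day 2 and 3 to 6 at day 6 without cytokines (3 without replicate 1 of the wild-type cells) and 4 to 5 with them. The ranges were 5 to 5, 6 to 6, 5 to 6 and 6 to 9 in the wild-type comparisons, in the order of the report. In TKO cells they were 4 to 5 and 4 to 4 from EpiLCs to day 2 with and without cytokines, 1 to 1 and 0 to 0 from day 2 to day 6, and 0 to 1 between cytokine conditions at day 2 and at day 6, where 1 gene was left without replicate 1 of the cytokine-free cells of day 2 or replicate 2 of the day 6 cells with cytokines, and 0 without any other library of the pair. Against PGCLCs they were 5 to 6 and 4 to 4, and for the differences of responses 2 to 3 and 6 to 7. The number of all genes called in these reduced fits is not given. The ranges therefore do not set a change in the 9 genes apart from a loss of calls over all genes. Without division by exon length the log2 ratio of Dnmt3a to Dnmt3b was −1.48, −1.92, 3.57 and 1.41 in wild-type EpiLCs, day 2, day 6 without and day 6 with cytokines, and in TKO cells −0.94 in EpiLCs, −1.09 and 0.51 at days 2 and 6 without cytokines and −1.42 and 0.32 with them, so the sign at day 6 in TKO cells turned.

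Replicate numbers are shared between conditions, but same-numbered libraries did not deviate together (r from −0.16 to 0.18 over 36 pairs of conditions, over 0.1 in 7). With the replicate number as a block the count of genes called was unchanged in all 18 comparisons (3 of 9 in EpiLCs and 7 of 9 for the response to cytokines, for example), and 162 of 162 differences kept their side of the limit. With 2 libraries per condition, differences below about the stated intervals were not detectable. Low counts limited Tdg, with 14 to 133 per library, and Dnmt3l in cytokine-free wild-type cells of day 6, with 4 counts. The cause of the low Tdg counts was not tested.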
